A study of Homo sapiens with 6 samples.

Results

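This account describes 54 interferon-stimulated genes in MDA-MB-231 breast cancer cells and in Adriamycin-resistant (ADRr) cells derived from them. The 54 genes were chosen by symbol, as genes known to be induced by type I or type II interferon. Earlier results of these data were known when they were chosen. All 54 had a row among the 58735 genes of the count table. Of the 54, 52 had enough reads to be tested, among 15242 tested genes. IFI44L and CMPK2 were not tested because their counts were too low.

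MDA-MB-231 is a triple-negative breast cancer (TNBC) cell line, which lacks the hormone receptors and HER2. Adriamycin (doxorubicin, ADR) is an anthracycline that intercalates into DNA and traps topoisomerase II on it. Polyadenylated RNA was sequenced from parent cells, labelled WT in genotype (3 libraries), and from ADRr cells, labelled as resistant to ADR (3 libraries). According to the methods, ADRr cells were selected by stepwise exposure to rising ADR and were then isolated as clones by limiting dilution, so that a difference between the groups may also be one between a clone and the mixed culture it came from. Both groups were grown in DMEM with serum and antibiotics, and neither the labels nor the methods name a dose of ADR at harvest. The labels name no interferon treatment in either group. The series record mentions time points, which the sample labels do not assign, so the libraries of a group were taken as replicates. Nothing states that they came from separate cultures, and the p-values therefore measure only the spread between these libraries. Total counts ranged from 15983985 to 18272314 per library. At this depth, a gene without a read in a library could still have an expected count of up to 3 there (0.164 to 0.188 CPM), by counting error alone. Across tested genes, libraries of a group correlated at r = 0.989 to 0.993 and libraries of different groups at 0.935 to 0.937. The cells carried VIM, CD44, CAV1, AXL, EGFR and MSN, markers of this line, with 38.9 to 319 FPKM (reads scaled to gene length and to library size, the authors' values) as group means, while ESR1, PGR and ELF5 had 0 to 2 counts per library. GATA3, listed as a low or absent marker, was present at 8.73 FPKM in parent and 7.51 FPKM in ADRr cells.

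Interferons are secreted proteins that warn cells of viral nucleic acid. Type I and type III interferons bind receptors whose kinases JAK1 and TYK2 phosphorylate STAT2, which joins IRF9 in the complex ISGF3, and this complex binds the interferon-stimulated response element in promoters. Interferon gamma acts mainly through a different, palindromic promoter site. The proteins made from the induced genes degrade viral RNA, block its translation, hold virions at membranes, modify proteins with ISG15 and call lymphocytes by chemokines. Many of them are also transcribed at a low level without interferon, by IRF1 and by complexes of unphosphorylated STAT factors, and in tumour cells a subset of them has been tied to resistance to DNA damage.

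The sequences that interferon-responsive factors read were looked up in the 250 bases before each start site of RefSeq's promoter table (GRCh38.p14), in which 45 of the 54 members were matched. The core of the interferon-stimulated response element was searched as GAAANNGAA and the STAT site as TTCNNNGAA, on both strands. The letters of one motif can overlap those of the other. The GAAANNGAA core stood upstream of 27 of the 45 members (60.0%), against 8.41% of all 27305 genes of that table and 6.88% of its 35116 promoter windows. The TTCNNNGAA site stood upstream of 14 of the 45 (31.1%), against 8.09% of all genes. A match describes letters in a window and is not shown to be a bound site. The following windows of 30 bases, with the motif in capitals and read 5′ to 3′ on the gene's strand, are shown because they hold these letters in members that rose, fell or were not called in ADRr cells. The first 4 belong to members that rose, the fifth to one that fell and the next 2 to members that were not called, and the last is the STAT site of IRF1, which rose.
ISG15 (chr1:1013380-1013409, plus strand, in an intron of a longer ISG15 transcript in GENCODE 29): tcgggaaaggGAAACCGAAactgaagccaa
IFIT1 (chr10:89392498-89392527, plus strand, in an intron of LIPA): tagctttagtTTCACTTTCccctttcggtt
SAMD9 (chr7:93118096-93118125, minus strand, outside annotated genes): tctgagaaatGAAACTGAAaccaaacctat
DDX60 (chr4:168318821-168318850, minus strand, outside annotated genes): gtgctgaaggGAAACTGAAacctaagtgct
BST2 (chr19:17405741-17405770, minus strand, in exons of BISPR and MVB12A): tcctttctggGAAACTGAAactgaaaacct
OAS3 (chr12:112938321-112938350, plus strand, in an intron of AC004551.1): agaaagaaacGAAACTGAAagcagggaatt
RTP4 (chr3:187368355-187368384, plus strand, in an exon of RTP4): gaaccgaacaccGAAACTGAAactgtttgt
IRF1 (chr5:132490878-132490907, minus strand, in an intron of AC116366.3): acagcctgatTTCCCCGAAatgacggcacg

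Most of the 52 tested members stood higher in ADRr cells, and few stood lower. This holds for the members, which were chosen with earlier results of these data known. In the list of further interferon-response genes given below, 44.7% were called higher and 26.3% lower. Calls rest on edgeR's quasi-likelihood test, with an adjusted p no higher than 0.05 and a change of 1.2-fold or more, which is 0.26 on the log2 scale, in either direction. Of the 52 tested members, 35 (67.3%) were called higher, where 29.2% of all tested genes were, and 3 (5.77%) were called lower, where 29.6% of all tested genes were. The 3 lower members were BST2, TRIM22 and SAMHD1, and 14 members were not called. Every ADRr library lay above every parent library for 37 members (34.5% of all tested genes) and below for 7 (34.7% of all tested genes), while the libraries of 8 members overlapped. At a log2 fold change of at least 1, 15 members were called higher, where 9.74% of all tested genes were. The median log2 fold change of the tested members was 0.58, against -0.01 for all tested genes, and single members ran from -2.59 for TRIM22 to 3.51 for CXCL11. Summed over the 54 members, the level was 2886, 2997 and 2952 CPM in parent replicates 1 to 3 and 4205, 4277 and 4232 CPM in ADRr replicates 1 to 3. CPM, the unit of all levels below, are counts scaled to library size after edgeR's TMM normalization. In bulk RNA, a change in the share of cells that transcribe a gene and a change in RNA per cell cannot be told apart. With the call set at an absolute log2 fold change of 1.2, 12 members were called higher and 1 lower. The share of all tested genes called at this threshold was not counted. Members called lower numbered 5 without parent replicate 2 and 6 without ADRr replicate 3, and with no filter on low counts IFI44L was called lower as well. For these fits too, the share of all tested genes was not counted.

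**Figure D1:**
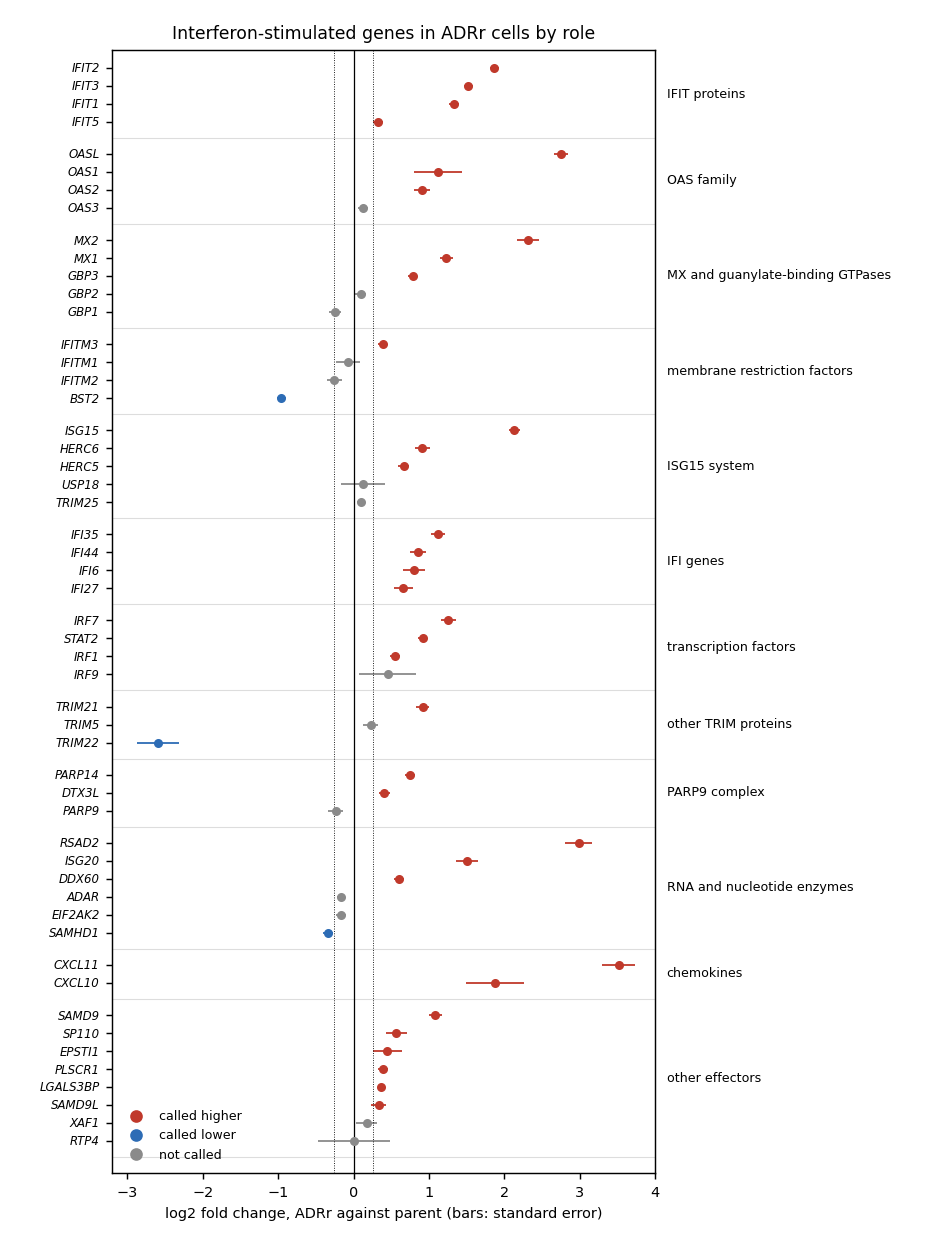
Log2 fold change (ADRr against parent, edgeR) of the 52 tested interferon-stimulated genes, sorted by role, with bars for the standard error, dotted lines at the 1.2-fold threshold, and red, blue and grey points for genes called higher, called lower and not called. Points range from -2.59 for TRIM22 to 3.51 for CXCL11, and 35 of the 52 are red.

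All 4 IFIT genes, whose proteins bind foreign RNA ends or each other and hold back translation, rose in ADRr cells. IFIT2 (ENSG00000119922, chromosome 10, 89283694 to 89309276) had 53.4, 58.0 and 53.2 CPM in parent replicates 1 to 3 and 199, 192 and 207 CPM in ADRr replicates 1 to 3. The ADRr libraries stood far above the parent libraries, with a log2 fold change of 1.86 (standard error 0.059, edgeR adjusted p = 1.8e-17). For IFIT3 (ENSG00000119917), which stabilises IFIT1 on RNA, the values were 104, 118 and 102 CPM in parent and 311, 305 and 312 CPM in ADRr cells. These groups did not overlap either (log2 fold change 1.52, standard error 0.058, edgeR adjusted p = 4.1e-16). IFIT1 (ENSG00000185745), the sensor of RNA caps that lack methylation, went from 34.0, 38.5 and 36.1 CPM to 88.9, 95.7 and 88.0 CPM. All 3 ADRr libraries exceeded all 3 parent libraries of IFIT1 (log2 fold change 1.33, standard error 0.069, edgeR adjusted p = 1.0e-13). IFIT5, in the same cluster on chromosome 10, rose by a log2 fold change of 0.33. The 50 tested genes nearest to each IFIT gene had a median log2 fold change of 0.26. Subtracting it leaves 0.07 for IFIT5, so little of its rise stood above its surroundings. The same subtraction leaves 1.07 for IFIT1, and more for IFIT2 and IFIT3. Per length, IFIT3 was the most abundant of the 4, at 40.1 FPKM in parent and 115 FPKM in ADRr cells.

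Within the OAS family, the enzymes that make oligoadenylate in the presence of double-stranded RNA, 3 of 4 genes rose. OASL (ENSG00000135114, chromosome 12, 121019111 to 121039242), which has lost the enzyme activity and enhances RIG-I signalling, had 10.6, 9.71 and 12.4 CPM in parent replicates 1 to 3 and 73.0, 76.8 and 71.3 CPM in ADRr replicates 1 to 3. The lowest ADRr library was several times the highest parent library, and the log2 fold change was 2.75 (standard error 0.089, edgeR adjusted p = 2.5e-17). OAS1 (ENSG00000089127) was scarce, with 19, 12 and 23 counts in parent and 51, 33 and 40 counts in ADRr libraries, or 1.14, 0.757 and 1.31 CPM in parent and 2.83, 2.01 and 2.18 CPM in ADRr libraries. Its groups did not overlap, but the estimate was wide (log2 fold change 1.12, standard error 0.32, edgeR adjusted p = 0.0035). OAS2 rose by a log2 fold change of 0.91. OAS3, the member that responds to long double-stranded RNA, was not called (log2 fold change 0.13, edgeR adjusted p = 0.11), with 789, 696 and 840 counts in parent and 906, 821 and 944 counts in ADRr libraries. OAS1, OAS2 and OAS3 lie side by side on chromosome 12, and the log2 fold changes of these neighbours thus ran from 0.13 to 1.12.

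Among the dynamin-like and guanylate-binding GTPases, MX2, MX1 and GBP3 rose and GBP1 and GBP2 were not called. MX2 (ENSG00000183486, chromosome 21, 41361943 to 41409390), which blocks nuclear entry of retroviral and herpesviral genomes, had 2.88, 4.29 and 3.41 CPM in parent replicates 1 to 3 and 16.6, 16.9 and 18.9 CPM in ADRr replicates 1 to 3. Parent and ADRr libraries were well apart (log2 fold change 2.31, standard error 0.15, edgeR adjusted p = 3.2e-12). MX1 (ENSG00000157601), a barrier to influenza viruses, had 22.2, 18.5 and 18.4 CPM in parent and 47.7, 46.1 and 44.9 CPM in ADRr libraries. Its groups were also apart, at a log2 fold change of 1.23 (standard error 0.087, edgeR adjusted p = 2.3e-11). MX1 and MX2 lie next to each other on chromosome 21, where the 50 nearest tested genes had a median log2 fold change of 0.73, which leaves 0.50 for MX1 and 1.58 for MX2 after subtraction. GBP3 rose by a log2 fold change of 0.78. GBP1, a large GTPase induced above all by interferon gamma, had an edgeR adjusted p of 0.0071 but a log2 fold change of -0.24, short of the threshold, with 800, 851 and 918 counts in parent and 719, 709 and 856 counts in ADRr libraries. Without parent replicate 1 it reached -0.29 and without ADRr replicate 3 it reached -0.30, both called. GBP2 had 685, 712 and 699 counts in parent and 792, 747 and 819 in ADRr libraries (log2 fold change 0.09, edgeR adjusted p = 0.27).

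The membrane restriction factors did not share a direction: IFITM3 rose, BST2 fell, and IFITM1 and IFITM2 were not called. BST2 (ENSG00000130303, chromosome 19, 17402939 to 17405648), also named tetherin because it holds budding virions on the cell surface, had 189, 196 and 211 CPM in parent replicates 1 to 3 and 102, 104 and 101 CPM in ADRr replicates 1 to 3. The ADRr libraries were close to each other and all below the parent libraries (log2 fold change -0.96, standard error 0.056, edgeR adjusted p = 8.1e-13). In parent cells BST2 and LGALS3BP were the most abundant members per length, at 174 and 169.7 FPKM, and in ADRr cells BST2 had 89.9 FPKM. IFITM3 (ENSG00000142089), which keeps viruses from fusing with endosomes, had 140.2, 132 and 149 CPM in parent and 172, 189.7 and 188 CPM in ADRr libraries. The groups were apart by a small step (log2 fold change 0.39, standard error 0.058, edgeR adjusted p = 3.9e-06). IFITM1, the form at the cell surface, had 113, 113 and 125 counts in parent and 122, 130 and 97 counts in ADRr libraries (log2 fold change -0.08, edgeR adjusted p = 0.69). IFITM2 had 574, 412 and 498 counts in parent and 456, 371 and 481 counts in ADRr libraries (log2 fold change -0.26, edgeR adjusted p = 0.028), and it was called lower when parent replicate 2 (-0.35), parent replicate 3 (-0.29) or ADRr replicate 3 (-0.30) was left out. The 3 IFITM genes are near-identical in parts, and IFITM1 and IFITM2 share 32.5% and 22.7% of their annotated exon bases with each other, so the split of reads between them is uncertain.

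ISG15, the ubiquitin-like protein that cells conjugate to new proteins and secrete under interferon, was among the members that rose most. ISG15 (ENSG00000187608, chromosome 1, 1001138 to 1014540) had 68.0, 69.3 and 82.9 CPM in parent replicates 1 to 3 and 315, 349.8 and 302 CPM in ADRr replicates 1 to 3. No ADRr library came near a parent library, and the log2 fold change was 2.13 (standard error 0.071, edgeR adjusted p = 3.7e-17). At 337 FPKM, against 76.5 FPKM in parent cells, ISG15 was the most abundant member per length in ADRr cells. HERC5, the main ligase that attaches ISG15, rose by a log2 fold change of 0.67, and its neighbour HERC6 rose by 0.91. USP18, which removes ISG15 and dampens the type I receptor, had 37, 35 and 27 counts in parent and 28, 47 and 38 counts in ADRr libraries. The USP18 libraries overlapped and the gene was not called (log2 fold change 0.12, standard error 0.29, edgeR adjusted p = 0.74). TRIM25, the ligase that modifies RIG-I and can attach ISG15, was not called either, with 3088, 3067 and 3272 counts in parent and 3691, 3250 and 3707 counts in ADRr libraries (log2 fold change 0.10, edgeR adjusted p = 0.084).

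Of the 5 genes named IFI, the 4 with enough reads to be tested all rose, and IFI44L had lower counts in ADRr cells. IFI35 (ENSG00000068079, chromosome 17, 43006725 to 43014456), a partner of NMI, had 16.6, 15.8 and 19.3 CPM in parent replicates 1 to 3 and 35.0, 41.9 and 35.7 CPM in ADRr replicates 1 to 3. Each ADRr library was well above each parent library (log2 fold change 1.12, standard error 0.098, edgeR adjusted p = 9.2e-10). IFI44 (ENSG00000137965), a cytoplasmic protein with antiviral effect, had 16.0, 18.9 and 13.7 CPM in parent and 29.3, 28.6 and 29.7 CPM in ADRr libraries. The parent libraries varied more than the ADRr libraries, without overlap (log2 fold change 0.86, standard error 0.10, edgeR adjusted p = 1.7e-07). IFI6, a mitochondrial and endoplasmic reticulum protein that protects from apoptosis, rose by a log2 fold change of 0.80. IFI27, a mitochondrial protein, rose by 0.66, although its parent libraries spread over 44.9, 72.0 and 84.7 CPM while ADRr libraries had 117, 104 and 97.6 CPM. IFI44L, the neighbour of IFI44, was not tested and had 17, 7 and 23 counts in parent and 9, 3 and 4 counts in ADRr libraries, which overlap. When the filter on low counts was removed it was called lower (log2 fold change -1.60, standard error 0.55, edgeR adjusted p = 0.011). It also passed the filter when any one of 4 libraries was left out, and it was called lower without parent replicate 2 or ADRr replicate 1 (edgeR adjusted p = 0.0020 and 0.0079) and not called without ADRr replicate 2 or 3 (0.058 and 0.059).

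Of the 4 transcription factors that carry the response, 3 were called higher, and IRF9, which had few counts, was not called. IRF7 (ENSG00000185507, chromosome 11, 612553 to 615999), which drives the later wave of interferon transcription, had 9.24, 10.1 and 10.4 CPM in parent replicates 1 to 3 and 23.3, 23.4 and 24.4 CPM in ADRr replicates 1 to 3. Its groups were tight and apart (log2 fold change 1.26, standard error 0.10, edgeR adjusted p = 2.4e-10). STAT2 (ENSG00000170581, chromosome 12, 56341597 to 56360155), the subunit that brings the activation domain to ISGF3, had 82.0, 75.2 and 77.2 CPM in parent and 148, 149.6 and 144 CPM in ADRr libraries. Again no library overlapped (log2 fold change 0.91, standard error 0.057, edgeR adjusted p = 2.7e-12). IRF1 (ENSG00000125347, chromosome 5, 132481609 to 132490798), a classical target of interferon gamma and itself an activator, had 66.5, 60.3 and 59.8 CPM in parent and 88.8, 95.0 and 89.5 CPM in ADRr libraries. The IRF1 groups were apart as well (log2 fold change 0.55, standard error 0.064, edgeR adjusted p = 8.8e-08). On its exons, 22.0% of the bases are shared with C5orf56 on the opposite strand, and whether counting used strand is not given in the sources used here. IRF9 (ENSG00000213928), the DNA-binding subunit of ISGF3, had 23, 10 and 30 counts in parent and 44, 17 and 30 counts in ADRr libraries, or 1.38, 0.631 and 1.70 CPM in parent and 2.44, 1.04 and 1.63 CPM in ADRr libraries. The IRF9 libraries overlapped and the gene was not called (log2 fold change 0.45, standard error 0.38, edgeR adjusted p = 0.30), and 48.4% of its exon bases are shared with AL136295.5 on the same strand, where reads may have been assigned to neither gene.

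**Figure D2:**
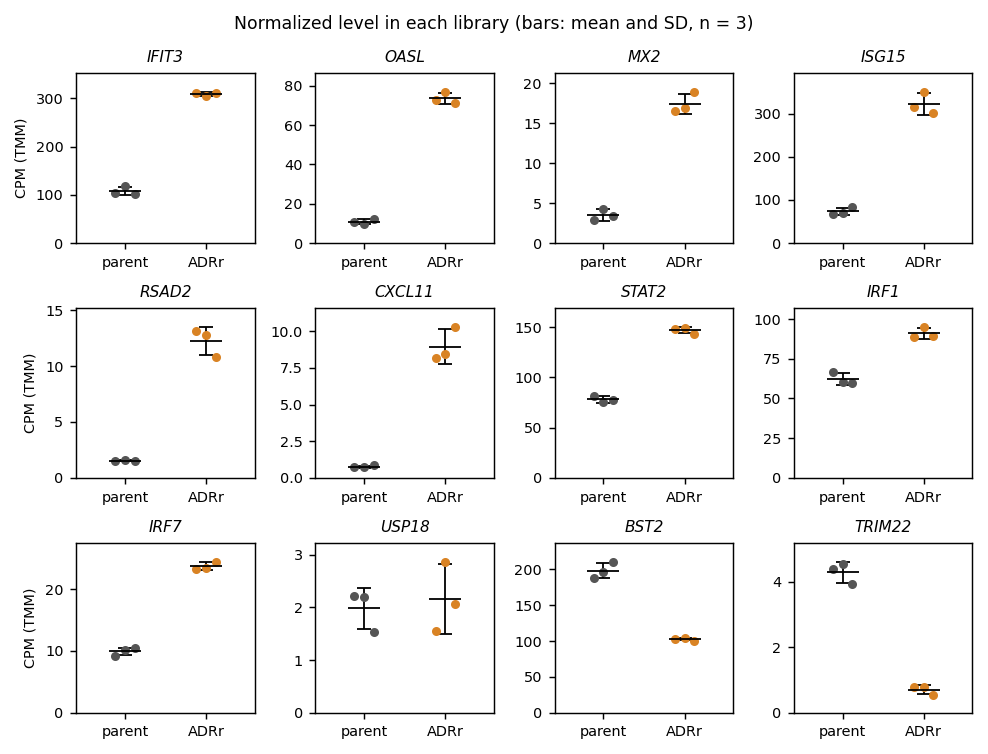
Level in CPM after TMM scaling of 12 genes in each of the 3 parent and 3 ADRr libraries (points), with the mean and SD as bars and each axis starting at 0. ADRr points lie above parent points for IFIT3, OASL, MX2, ISG15, RSAD2, CXCL11, STAT2, IRF1 and IRF7, below them for BST2 and TRIM22, and overlap with them for USP18.

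The other TRIM ligases moved in opposite directions. TRIM22 (ENSG00000132274, chromosome 11, 5689689 to 5737089), a nuclear ligase that restricts viral transcription and is also a p53 target, had 4.38, 4.54 and 3.92 CPM in parent replicates 1 to 3 and 0.777, 0.793 and 0.544 CPM in ADRr replicates 1 to 3. It was low in all libraries and lower in every ADRr library, with 73, 72 and 69 counts in parent and 14, 13 and 10 counts in ADRr libraries (log2 fold change -2.59, standard error 0.28, edgeR adjusted p = 3.0e-08). TRIM21 (ENSG00000132109), the cytosolic receptor for antibody-coated virus, had 18.5, 18.5 and 16.0 CPM in parent and 34.3, 31.2 and 34.1 CPM in ADRr libraries. Here each ADRr library exceeded each parent library (log2 fold change 0.91, standard error 0.091, edgeR adjusted p = 7.9e-09). TRIM5, the restriction factor that recognises retroviral capsids and the neighbour of TRIM22, was not called, with 225, 216 and 233 counts in parent and 272, 262 and 295 counts in ADRr libraries (log2 fold change 0.22, edgeR adjusted p = 0.059).

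PARP9 and DTX3L form a ligase that works at DNA breaks and on interferon signalling, and PARP14 is an ADP-ribosyltransferase encoded beside them on chromosome 3. PARP14 (ENSG00000173193) had 44.5, 43.9 and 42.8 CPM in parent replicates 1 to 3 and 75.3, 69.0 and 76.0 CPM in ADRr replicates 1 to 3. The ADRr libraries were all higher (log2 fold change 0.75, standard error 0.067, edgeR adjusted p = 1.4e-09). DTX3L rose by a log2 fold change of 0.41. PARP9, whose start lies head to head with that of DTX3L, had 280, 250 and 278 counts in parent and 232, 221 and 268 counts in ADRr libraries and did not reach the 1.2-fold threshold (log2 fold change -0.24, edgeR adjusted p = 0.048). Without ADRr replicate 3 the log2 fold change of PARP9 was -0.29 and it was called lower.

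The RNA and nucleotide enzymes held both some of the strongest increases and a decrease. RSAD2 (ENSG00000134321, chromosome 2, 6865806 to 6898239), or viperin, which makes a chain-terminating ribonucleotide, had 1.50, 1.58 and 1.53 CPM in parent replicates 1 to 3 and 13.1, 12.8 and 10.8 CPM in ADRr replicates 1 to 3. From a low level it rose in every ADRr library (log2 fold change 2.99, standard error 0.18, edgeR adjusted p = 1.1e-12), while the 50 nearest tested genes had a median of 0.65. CMPK2, a mitochondrial nucleotide kinase transcribed head to head with RSAD2, was too low to be tested, with 2, 3 and 3 counts in parent and 10, 5 and 6 counts in ADRr libraries, a pooled ratio of 2.54 with an exact 95% interval of 1.08 to 6.63 that covers counting error only. ISG20, an RNA exonuclease, rose by a log2 fold change of 1.50, and DDX60, a helicase that aids RIG-I, rose by 0.60. Both rose against their surroundings, whose medians were -0.53 and -0.77. SAMHD1 (ENSG00000101347), which hydrolyses deoxynucleotides and acts at stalled replication forks, had 97.7, 109 and 93.8 CPM in parent and 78.4, 77.2 and 82.1 CPM in ADRr libraries. Every ADRr library of SAMHD1 was below every parent library, by a modest step (log2 fold change -0.34, standard error 0.064, edgeR adjusted p = 7.5e-05). ADAR, which edits adenosine to inosine in double-stranded RNA, had 5776, 5832 and 5939 counts in parent and 5487, 5079 and 5947 counts in ADRr libraries, a log2 fold change of -0.16 that is smaller than the threshold (edgeR adjusted p = 0.0062). EIF2AK2, the kinase PKR that stops translation, had 1558, 1664 and 1552 counts in parent and 1518, 1369 and 1606 counts in ADRr libraries and also changed by less than the threshold (log2 fold change -0.17, edgeR adjusted p = 0.029). The 50 tested genes nearest to EIF2AK2 had a median log2 fold change of 0.63.

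Both chemokines rose. CXCL11 (ENSG00000169248, chromosome 4, 76033682 to 76041415), a ligand of the chemokine receptor CXCR3 on T cells, had 0.72, 0.757 and 0.852 CPM in parent replicates 1 to 3 and 8.16, 8.42 and 10.3 CPM in ADRr replicates 1 to 3. The raw counts were 12, 12 and 15 in parent and 147, 138 and 189 in ADRr libraries. This was the largest log2 fold change among the tested members, 3.51 (standard error 0.22, edgeR adjusted p = 3.9e-12), and no libraries overlapped. CXCL10, which binds the same receptor, had 7, 8 and 9 counts in parent and 26, 27 and 41 counts in ADRr libraries and a log2 fold change of 1.88. Both lie in the CXC cluster on chromosome 4, where the 50 nearest tested genes had a median of -0.36. CXCL9, the third ligand of CXCR3, had 0 counts in all 6 libraries.

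Among the 8 other effectors, 6 rose and 2 were not called. SAMD9 (ENSG00000205413, chromosome 7, 93099513 to 93118023), a growth-restraining protein that blocks poxvirus translation, had 28.9, 32.5 and 26.1 CPM in parent replicates 1 to 3 and 63.1, 58.0 and 63.9 CPM in ADRr replicates 1 to 3. No parent library of SAMD9 reached an ADRr library (log2 fold change 1.08, standard error 0.082, edgeR adjusted p = 7.1e-11). SAMD9L, its neighbour and close paralog, rose by 0.33 with overlapping libraries, and without parent replicate 3 the change was 0.23 and fell short of the threshold. SP110, a nuclear body protein, rose by 0.56, PLSCR1, a phospholipid scramblase, by 0.39, and LGALS3BP, a secreted galectin ligand, by 0.37. EPSTI1 was called at 0.45, but narrowly: its edgeR adjusted p was 0.046, the call held when parent replicate 2 was left out, and it was lost when any other library was left out, with adjusted p up to 0.19. XAF1, which counters the apoptosis inhibitor XIAP, had 131, 178 and 146 counts in parent and 180, 183 and 177 counts in ADRr libraries (log2 fold change 0.17, edgeR adjusted p = 0.30), and without parent replicate 2 it was called at 0.34. Of the exon bases of XAF1, 38.3% lie in PRAL on the opposite strand. RTP4, a chaperone of receptors, had 5, 18 and 9 counts in parent and 10, 12 and 12 counts in ADRr libraries (log2 fold change 0.01, edgeR adjusted p = 0.99).

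Genes that lie together on a chromosome can move together in a clone, and each member was therefore set beside the 50 tested genes nearest to it on its chromosome. The median over members of the neighbours' median was 0.03, and subtracting it from each member gave 0.52 as the members' median instead of 0.58. The neighbours' medians were highest for MX1 and MX2 on chromosome 21 (0.73), RSAD2 (0.65) and EIF2AK2 (0.63). They were lowest for DDX60 (-0.77), ISG20 (-0.53) and the 2 chemokines (-0.36). Whether copy number differs between the cells was not measured here.

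**Figure D3:**
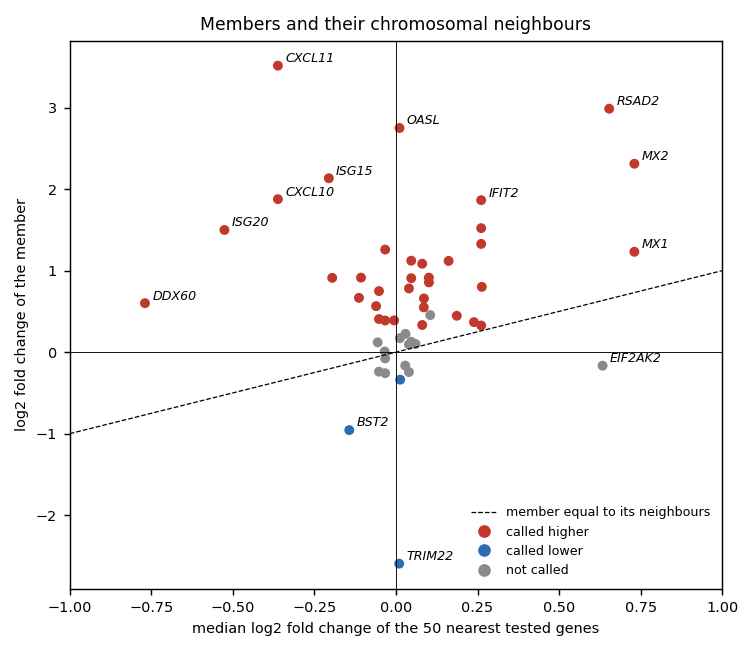
Log2 fold change of each tested member (vertical) against the median log2 fold change of the 50 tested genes nearest to it (horizontal), with a dashed line where both are equal. Most neighbour medians lie near 0, MX1, MX2, RSAD2 and EIF2AK2 lie to the right at 0.63 to 0.73, and DDX60 lies farthest to the left at -0.77.

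Among the members described above, 6 belong to a short published set of interferon-stimulated genes. This set is known to be kept high in tumour cells that resist DNA damage. The 6 were IFIT1, IFIT3, IFI44, OAS1, ISG15 and MX1. All 6 were called higher, where 67.3% of the tested members and 29.2% of all tested genes were. Larger published sets of this kind were not counted. Their median log2 fold change was 1.28, and they ran from 0.86 for IFI44 to 2.13 for ISG15.

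Next, the genes that make, receive and relay interferon were counted. Of 21 interferon genes, only IFNL1 had enough reads to be tested. IFNL1, a type III interferon, gave 3, 0 and 0 counts in the parent libraries and 35, 25 and 45 in the ADRr libraries. It was called higher (edgeR adjusted p = 4.7e-07), and the pooled ADRr count was 33.9 times the parent count after scaling to library size, with an exact 95% interval of 11.3 to 167 for counting error only. IFNL2 had 1 count and IFNL3 had 3 counts, all in ADRr replicate 2, and the paralogs IFNL2 and IFNL3 share most of their sequence. The other 18 genes, IFNB1, IFNG, IFNE, IFNK, IFNW1 and 13 IFNA genes, had 0 counts in all 6 libraries, which allows an expected count of up to 3 in each. Transcripts without a poly(A) tail or released protein were not measured.

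Of the 15 genes for receptors, kinases and inhibitors, all were tested, and 5 (33.3%) were called higher and 5 (33.3%) lower. Both shares were near those of all tested genes, 29.2% higher and 29.6% lower. Its median log2 fold change was -0.01, as over all tested genes. For the type I receptor, IFNAR1 rose from 63.5, 70.2 and 58.4 CPM in parent to 109, 103 and 104 CPM in ADRr replicates 1 to 3 (log2 fold change 0.72, edgeR adjusted p = 2.6e-09). IFNAR2 had 20, 9 and 12 counts in parent and 28, 19 and 21 counts in ADRr libraries and was not called (log2 fold change 0.65, edgeR adjusted p = 0.14). For the interferon gamma receptor, IFNGR1 had 56.3, 69.1 and 60.2 CPM in parent and 61.5, 62.5 and 60.5 CPM in ADRr libraries, which overlapped (log2 fold change -0.01, edgeR adjusted p = 0.93), while IFNGR2 rose from 50.5, 54.9 and 58.9 CPM in parent to 85.8, 91.1 and 88.6 CPM in ADRr libraries (log2 fold change 0.69, edgeR adjusted p = 4.4e-09). The chains of the type III receptor parted. IFNLR1, its specific chain, fell from 9.18, 9.97 and 9.88 CPM in parent to 4.49, 5.67 and 6.26 CPM in ADRr libraries (log2 fold change -0.82, edgeR adjusted p = 5.3e-05), and IL10RB, the shared chain, rose from 2, 6 and 14 counts in parent to 22, 26 and 17 counts in ADRr libraries (log2 fold change 1.49, edgeR adjusted p = 0.0098). IFNAR1, IFNAR2, IFNGR2 and IL10RB all lie on chromosome 21, as MX1 and MX2 do. The 50 tested genes nearest to MX1 and MX2 had a median log2 fold change of 0.73, and the neighbours of the receptor genes were not counted. The readthrough gene AP000295.1 shares 44.2% of the exon bases of IFNAR2 and 38.1% of those of IL10RB, where reads may have been assigned to neither gene. On the opposite strand, IL10RB-DT covers another 39.1% of the exon bases of IFNAR2, for 83.2% in all.

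The kinases also parted. JAK1, which serves all 3 receptor types, rose from 178, 199 and 173 CPM in parent to 231, 226 and 230.0 CPM in ADRr libraries (log2 fold change 0.32, edgeR adjusted p = 2.8e-05). TYK2, its partner at the type I and type III receptors, fell from 142, 134 and 158 CPM in parent to 88.2, 92.7 and 92.7 CPM in ADRr libraries (log2 fold change -0.67, edgeR adjusted p = 2.8e-09). JAK2, which serves the interferon gamma receptor, had 5.82, 4.10 and 5.96 CPM in parent and 5.83, 7.69 and 7.30 CPM in ADRr libraries and was not called (log2 fold change 0.38, edgeR adjusted p = 0.061). Among the inhibitors, SOCS3, a feedback inhibitor of JAK kinases best known from IL-6 signalling, fell from 32.8, 29.4 and 34.5 CPM in parent to 14.0, 15.9 and 15.1 CPM in ADRr libraries (log2 fold change -1.10, edgeR adjusted p = 7.2e-10). PIAS1, an inhibitor of activated STAT factors, fell from 42.6, 51.5 and 43.2 CPM in parent to 24.1, 25.6 and 24.6 CPM in ADRr libraries (log2 fold change -0.89, edgeR adjusted p = 5.0e-09). Of the exon bases of PIAS1, 32.3% lie in genes on the opposite strand. IRF2, a repressor of IRF1 targets, fell by 0.38 on the log2 scale, PTPN2, a phosphatase of JAK kinases, rose by 0.40, and SOCS1 (-0.36) and PTPN6 (-0.01) were not called.

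Of the 15 nucleic acid sensors and adaptors, 13 were tested, 8 (61.5%) rose, where 29.2% of all tested genes did, and 3 (23.1%) fell, where 29.6% did, with a median log2 fold change of 0.56. IFIH1 (MDA5), the receptor for long double-stranded RNA, went from 15.1, 17.7 and 15.7 CPM in parent to 86.4, 86.6 and 85.2 CPM in ADRr replicates 1 to 3, without overlap (log2 fold change 2.42, standard error 0.077, edgeR adjusted p = 1.9e-17). IFI16, a nuclear DNA sensor, went from 70.4, 80.5 and 73.1 CPM in parent to 230.1, 205 and 241 CPM in ADRr libraries, also without overlap (log2 fold change 1.59, edgeR adjusted p = 1.8e-15). Increases were also called for TMEM173 (STING, 1.57), DDX58 (RIG-I, 0.97), DHX58 (0.68), the DNA sensor cGAS (0.60), AIM2 (0.56) and TICAM1 (0.55). TLR3, the endosomal sensor of double-stranded RNA, fell from 9.30, 12.6 and 9.65 CPM in parent to 4.27, 2.75 and 3.43 CPM in ADRr libraries (log2 fold change -1.59, edgeR adjusted p = 5.6e-08). MAVS, the adaptor of RIG-I and IFIH1, fell by 0.75 and the kinase IKBKE by 0.55 on the log2 scale. The kinase TBK1 (-0.14) and the factor IRF3 (0.00) were not called. ZBP1, with 0 to 2 counts, and TREX1, listed at 0 with all of its exon bases inside those of ATRIP, were not tested.

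A further 43 genes known to respond to interferon but outside the 54 were counted for comparison. Of the 38 tested, 17 (44.7%) were called higher, where 29.2% of all tested genes were, and 10 (26.3%) were called lower, near the 29.6% of all tested genes. The median log2 fold change was 0.18. APOBEC3G, a cytidine deaminase that restricts retroviruses, went from 2.10, 1.70 and 1.82 CPM in parent to 11.1, 12.5 and 11.7 CPM in ADRr replicates 1 to 3 (log2 fold change 2.64, edgeR adjusted p = 4.7e-12). LAMP3, a lysosomal protein of dendritic cells, went from 3.18, 4.29 and 3.80 CPM in parent to 23.5, 22.3 and 22.3 CPM in ADRr libraries (log2 fold change 2.59, edgeR adjusted p = 4.2e-14), and GBP4 from 9.12, 8.14 and 9.14 CPM in parent to 39.6, 32.9 and 38.6 CPM in ADRr libraries (log2 fold change 2.07, edgeR adjusted p = 5.2e-14). None of these 3 had overlapping groups. The genes called lower included CNP (-1.26), TRIM14 (-1.11), LGALS9 (-1.05) and PARP10 (-1.03). The higher share among the 54 (67.3%) thus stood beside 44.7% in this list, 61.5% in the sensors and 33.3% in the receptor and kinase list, and no test was made between the lists.

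**Figure D4:**
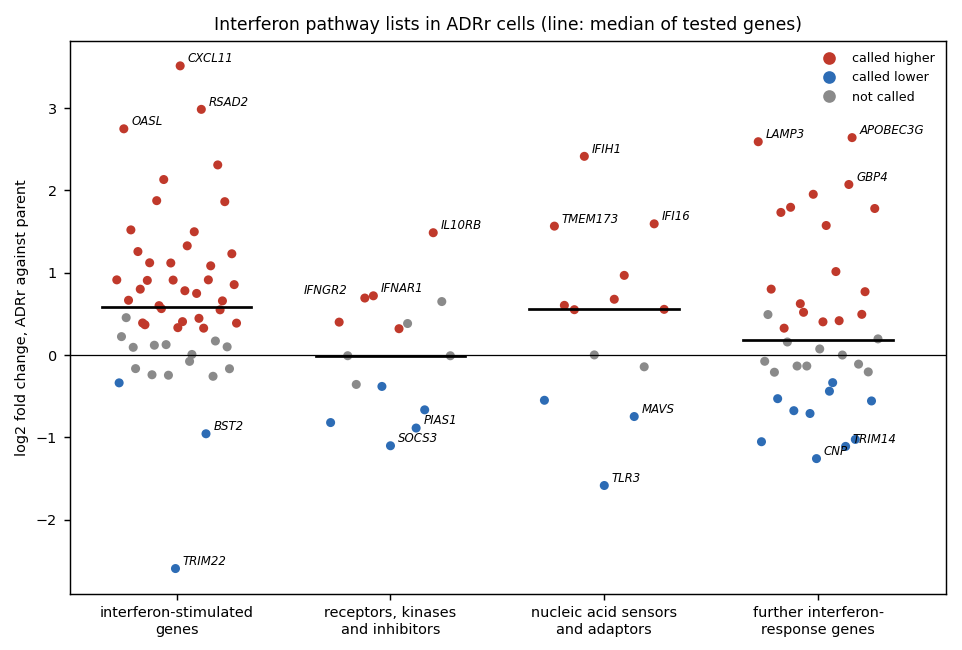
Log2 fold change (ADRr against parent, edgeR) of tested genes in the 54 interferon-stimulated genes, the receptors, kinases and inhibitors, the nucleic acid sensors and adaptors, and the further interferon-response genes, coloured by call, with a line at each list's median. The medians are 0.58, -0.01, 0.56 and 0.18.

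The letters shown in the promoter windows were found among members of every kind. The GAAANNGAA core stood in 19 of 30 matched members called higher, 1 of 2 called lower and 6 of 11 not called. The 26 tested members with the core had a median log2 fold change of 0.63, and the 17 without it had 0.55. In 11 matched members called higher at a log2 fold change of at least 1, 8 had the core. CXCL11, the member with the largest increase, had the TTCNNNGAA site but no GAAANNGAA core in its window. BST2, which fell, had both, as seen in its sequence above, and RTP4, which was not called, had 3 copies of the core. The 9 unmatched members were IFIT2, IFITM2, IRF7, MX2, OAS2, OASL, USP18, TRIM22 and GBP2.

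Markers of other cell types were read as a check on the cultures. The 19 leukocyte markers summed to 63.8 to 70.6 CPM in parent and 96.1 to 102 CPM in ADRr libraries, and 15 of them were under 1 CPM in every ADRr library. LAPTM5 alone had 51.2, 55.9 and 53.7 CPM in parent and 83.2, 88.1 and 85.7 CPM in ADRr libraries, and without it the sum was 12.7 to 16.9 CPM in parent and 12.9 to 14.7 CPM in ADRr libraries, which overlap. Of the 5 leukocyte markers with enough reads to be tested, LAPTM5 (0.68 on the log2 scale) and CORO1A (1.27) were called higher, CSF1R (-1.31) and IL3RA (-2.39) were called lower, and CD14, with 87, 78 and 133 counts in parent and 90, 101 and 87 counts in ADRr libraries, was not called. Of the other 14, 13 had at most 7 counts in any library, among them PTPRC, CD3E and LYZ with 0 to 2, and TYROBP, MS4A1, GZMB and CLEC4C had 0 in all libraries. Among the low markers, ITGAM had 0 counts in every parent library and 6, 6 and 7 in ADRr libraries. CD53 had 0 in every parent library and 4, 1 and 3 in ADRr libraries. HCLS1 went the other way, with 6, 5 and 16 counts in parent and 4, 2 and 0 in ADRr libraries. The 6 fibroblast markers summed to 162 to 165 CPM in parent and 28.1 to 31.8 CPM in ADRr libraries, with DCN at 0 and PDGFRA at 0 to 2 counts. Most of the parent sum came from COL1A2 (mean 68.5 CPM in parent and 0.388 CPM in ADRr cells) and PDGFRB (62.6 and 8.37 CPM). COL1A1 and LUM were called lower as well. Fibroblast markers were thus lower and the leukocyte sum, LAPTM5 included, higher in ADRr libraries, and their part in the results above was not tested beyond these values. The 4 endothelial markers summed to at most 1.10 CPM in any library.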

How the data were processed

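Per the methods, libraries of polyadenylated RNA (CORALL kit) were read from both ends on an Illumina NovaSeq, while the sample records describe another kit. The submitters' processing notes name fastp, HISAT2 (2.0.5), featureCounts (1.5.0-p3), DESeq2 (1.20.0) and GRCh38. Strandedness and the treatment of reads that map to several genes are not given in the sources used here. The authors deposited raw counts, whole numbers for each gene, and FPKM values that they made from these by gene length and reads per library. Identifiers were those of GENCODE 29, from which exon overlaps were taken.

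The main comparison used edgeR 4.0.16 in R 4.3.3. The 15242 genes kept by filterByExpr were scaled by TMM (factors 0.987 to 1.01) and compared by the quasi-likelihood test without a block, with Benjamini-Hochberg adjustment over all tested genes, and called with an adjusted p no higher than 0.05 and a change of 1.2-fold or more. Replicates varied by a common biological coefficient of variation of 0.0598, which gave log2 fold changes a standard error of 0.096 in the median. The script was tested on simulated data. Exact permutation of 3 and 3 libraries cannot give a p below 0.1, so it was not used. The alternatives used DESeq2 1.42.0, limma 3.58.1 (limma-trend on log2 FPKM with a pseudocount of 1 or 0.1), other size factors, filters and thresholds, a replicate block, and each library left out in turn. Ratios of genes with 1 to 3 parent counts were given with exact binomial intervals. Promoter sequences came from RefSeq (GRCh38.p14).

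The 54 members and all lists were chosen with earlier results of these data known. Values in every library were given for the called member with the largest change in each direction within a role group, for STAT2, IRF1, IRF7 and IRF9, for the 6 damage resistance genes, and for the 3 largest called changes of each pathway list with the receptors and the kinases. Some genes of the lists are not reported here and were left out of their counts and medians. Genes outside this rule are named with their fold change or counts. Summary statistics of the members are counts and medians, with no test over a list.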

Additional observations from a re-analysis of the deposited data

How the results depend on the processing

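The 35 higher calls among the members became 31 to 35 under the other normalizations, filters and tools and 33 to 36 with a library left out, and 12 at an absolute log2 fold change of 1.2. The 3 lower calls became 2 to 4 under the other normalizations, filters and tools (the fourth was IFI44L, with no filter), 8 with the adjusted p alone, 1 at an absolute log2 fold change of 1.2, and 3 to 6 with a library left out. At an absolute log2 fold change of 1.2, the receptors and kinases had 1 higher and 0 lower calls, the sensors 3 and 1, and the further interferon-response genes 8 and 1. The share of all tested genes was not counted at this threshold or under the other alternatives. These counts and those of the members under any alternative therefore have no baseline beside them. With 10 counts required in every library, no interferon ligand was tested and 0 were called, which follows from the filter. The members' median of 0.58 became 0.63 by limma-trend on log2(FPKM + 0.1), 0.38 on log2(FPKM + 1) with no filter, which shrinks low genes, and 0.52 after subtracting neighbours. No tested member changed sign while called, and 44 of 52 kept their call and direction under every alternative that tested them, apart from the changed call thresholds. EPSTI1 was lost under DESeq2 (adjusted p = 0.082). In each of the fits with no filter, with the replicate block and by filtered limma-trend with either pseudocount, 1 member was lost. With limma-trend on log2(FPKM + 1) without a filter 4 members were lost, among them IFI27, SAMD9L and SP110. TRIM22 was not tested by filtered limma-trend, because its mean lay under the minimum of 0.5 FPKM, which left 2 lower calls there.

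Replicate numbers did not pair the libraries: deviations from the group mean of same-numbered parent and ADRr libraries correlated at 0.0074, -0.021 and -0.046. With the replicate block, 34 members were higher and 3 lower, and the median was 0.58. Depth limits IRF9, RTP4, USP18, OAS1 and CXCL10, whose counts were low.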

Other observations

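The interferon motif was also counted outside the members. Of 753 tested genes outside the 54 with a GAAANNGAA core in the 250 bases before a RefSeq start, 31.7% were called higher in ADRr cells and 31.7% lower. Of 9669 tested genes outside the 54 without the core, 29.4% were called higher and 32.0% lower. With at least 2 copies of the core, 22 of 63 such genes (34.9%) were called higher. For the TTCNNNGAA site, 28.5% of 778 genes with it and 29.7% of 9644 genes without it were called higher. No test was made of these shares.

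Of the 38 tested further interferon-response genes, 19 had every ADRr library above every parent library, where 34.5% of all tested genes did. Another 11 had every ADRr library below, where 34.7% of all tested genes did. Those that rose without overlap included SLFN5 (1.95 on the log2 scale), the helper GTPase GBP5 (1.80), WARS, a tRNA synthetase (1.78), IDO1, which breaks down tryptophan (1.73), BATF2 (1.57) and PARP12 (1.01). Those that fell included TNFSF10, the death ligand TRAIL (-0.68), TRIM26 (-0.71), LAP3 (-0.56), PML (-0.44) and CIITA (-0.34), the activator of HLA class II genes. These names were chosen after their values were seen.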
